A study of Arabidopsis thaliana with 13 samples.

Results

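Transcripts that changed with age in the same direction in both lines were chosen by their levels at 10 and 4 das (days after sowing in the study's text, days after stratification in the sample labels). A probe set was a member if the 6 values at 10 das all lay above, or all lay below, the 4 values at 4 das and if the means differed by at least 0.7 on the log2 scale in the same direction in rRBr and in Col-0. Of 22746 probe sets, 31 met the rule as risers and 25 as fallers, 56 in all. Since these values selected the members, the difference between 10 and 4 das is given as a description with no test.

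The root tip holds the stem cell niche, the dividing cells of the meristem and the cells that leave it to elongate and differentiate. RBR, the plant homolog of the Retinoblastoma protein, binds E2F transcription factors and restrains the cell cycle, and it limits the divisions of stem cells in the root. Seedlings of the 2 lines therefore differ in a regulator of the meristem, whereas the members below were chosen by a difference between days that both lines shared.

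The 13 Affymetrix ATH1 arrays measured RNA of dissected root tips from rRBr seedlings, in which an RNA interference construct driven by the RCH1 promoter silences RBR in the root meristem, and from seedlings of Col-0, the wild type and background of rRBr. At 4, 6 and 10 das there were 2, 2 and 3 arrays of rRBr and 2, 1 and 3 arrays of Col-0. Each array held RNA pooled from many tips, and a change in the share of a cell type cannot be told apart from a change in RNA per cell. The annotation used here assigns no probe set to RBR alone, and its level is not analysed here.

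Levels are deposited RMA values on the log2 scale, in which 1 unit is a doubling, and the array medians lay between 5.96 and 6.06. Replicate 1 of rRBr at 6 das and replicate 1 of both lines at 10 das stood apart from the other arrays. Of the 11 genes on the root hair list, the annotation gave a probe set of its own only to the expansin genes EXPA7 and EXPA18. Their mean log2 values were 8.80 to 8.89 on the 3 arrays that stood apart and 4.69 to 7.41 on the other 10. Results are therefore also given without these 3 arrays.

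The risers made up 0.136% and the fallers 0.11% of all probe sets, and both shares are set by the rule. The absence of overlap alone was met by 0.862% of probe sets upward and by 0.906% downward. Over all probe sets the median difference between 10 and 4 das was -0.01. The mean difference of the risers over both lines lay between 0.74 and 3.23 with a median of 1.11, and that of the fallers between -2.37 and -0.71 with a median of -1.04. Of the risers, 20 differed by at least 1, and of the fallers, 15. The log2 level at 4 das had a median of 5.49 over the risers and of 8.66 over the fallers, which describes the probe sets and not amounts of RNA.

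**Figure D1:**
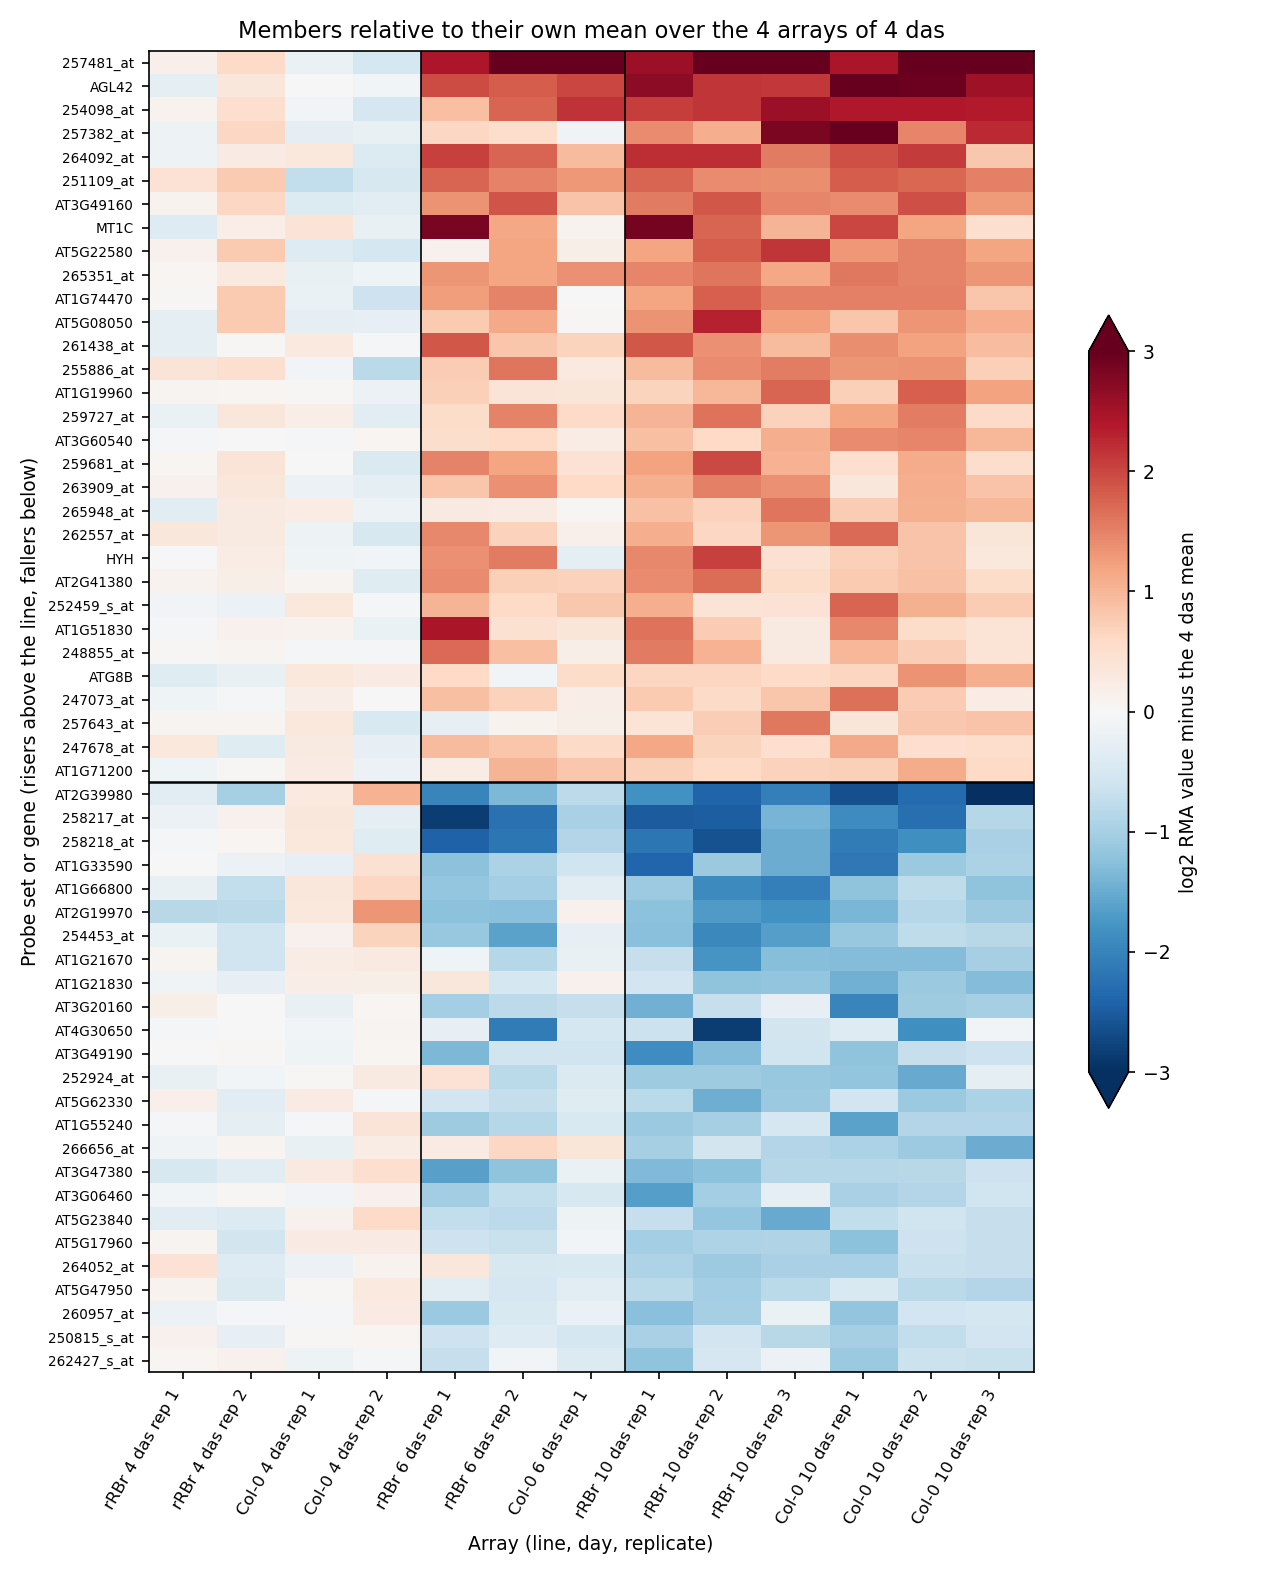
The colour of each cell gives the log2 RMA value of a member on 1 array (columns, in order of day) minus the member's mean over the 4 arrays of 4 das, with risers above the horizontal line and fallers below it and colours that end at 3 and -3. All 10 das columns are red for the 31 risers and blue for the 25 fallers by the rule, and the 3 arrays of 6 das lay above all 4 das values for 20 to 27 risers and below them for 14 to 23 fallers.

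A gene could be named for 13 risers and 16 fallers. A probe set of 1 faller is shared by several genes, and 18 risers and 8 fallers are given by their probe set. Of the named genes, the annotation gives a name that tells a role for AGL42, MT1C, AT1G74470, HYH and ATG8B, all risers. The other 24 carry only a locus code, and no role is given for them here.

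AGL42 had the largest difference among the named genes. It encodes a MADS box transcription factor that is known as a marker of the quiescent centre, the slowly dividing cells around which the root stem cells lie, and that is also known as FOREVER YOUNG FLOWER. Its log2 values at 4 das were 3.80 and 4.42 in rRBr and 4.09 and 4.00 in Col-0, around the mean lower quartile of the arrays, 4.19. At 6 das they were 6.03 and 5.89 in rRBr and 6.08 in Col-0, and at 10 das 6.76, 6.22 and 6.20 in rRBr and 7.16, 7.03 and 6.63 in Col-0. All 3 values of 6 das thus lay between the 2 outer days. The mean at 10 das was 6.39 ± 0.32 (SD, n = 3) in rRBr and 6.94 ± 0.28 (SD, n = 3) in Col-0, and the difference from 4 das was 2.28 in rRBr and 2.90 in Col-0. The values used here hold no detection call, so that the 4 das level is not shown to be above background and no fold change is given.

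AGL42 was the only member on any of the 26 gene lists set up for root tips. Only 31 of the 352 genes of the lists were assigned a probe set of their own by the annotation, and only these are called measured here. For 10 lists there was none, the cell cycle, xylem, phloem and endodermis lists among them. The stem cell niche list had 1 other measured gene, JKD, a zinc finger gene of the ground tissue and quiescent centre. JKD was lower at 10 das without overlap, by -0.27 in rRBr and -0.05 in Col-0, far under the limit of 0.7. Of the 44 probe sets of AGAMOUS-like genes, a family looked at only after the values were seen, AGL42 was the only member, and the family's median difference was 0.00.

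MT1C encodes a metallothionein, a small cysteine-rich protein that binds metal ions. Its log2 values were 8.85 and 9.43 in rRBr and 9.64 and 9.01 in Col-0 at 4 das, 12.08 and 10.40 in rRBr and 9.33 in Col-0 at 6 das, and 12.11, 10.97 and 10.25 in rRBr and 11.23, 10.42 and 9.73 in Col-0 at 10 das. The highest values of each line were those of the arrays that stand apart. Between the days the gap was only 0.09, and the mean difference of 1.55 became 1.11 without these arrays. As in EXPA7 and EXPA18, replicate 1 of MT1C was the highest of 10 das in both lines. Replicate 2 was above replicate 3 in MT1C and below it in EXPA7 and EXPA18. The part of root hair tissue in the level of MT1C was not tested. The annotation used here assigned no probe set to any other gene of the metallothionein family alone.

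AT1G74470 is annotated as a geranylgeranyl reductase, an enzyme that supplies the phytyl side chain of chlorophyll and tocopherols. The log2 values were 6.25 and 6.99 in rRBr and 6.01 and 5.58 in Col-0 at 4 das, 7.47 and 7.70 in rRBr and 6.21 in Col-0 at 6 das, and 7.39, 7.99 and 7.73 in rRBr and 7.71, 7.72 and 7.05 in Col-0 at 10 das. Both rRBr values of 6 das were within the range of 10 das. The Col-0 value of 6 das lay above both Col-0 values of 4 das and below both rRBr values of that day. In Col-0 24.4% of the difference had been reached.

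HYH, a bZIP transcription factor that acts with its homolog HY5 in light signalling, was also near its 10 das level at 6 das in rRBr and not in Col-0. It had log2 values of 4.69 and 4.92 in rRBr and 4.57 and 4.62 in Col-0 at 4 das, 6.06 and 6.27 in rRBr and 4.44 in Col-0 at 6 das, and 6.15, 6.76 and 5.16 in rRBr and 5.42, 5.56 and 5.02 in Col-0 at 10 das. The single Col-0 array of 6 das lay below all 4 das values. HYH did not meet the rule without replicate 1 of both lines at 10 das. HY5 itself was assigned no probe set of its own by the annotation used here.

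Both genes act in greening tissue or under light, and 2 of the 23 genes on the photosynthesis list were measured. LHCB4.1, which encodes an antenna protein of photosystem II, lay without overlap above 4 das but under the limit, with a difference of 0.30 in rRBr and 0.88 in Col-0. LHCB4.2 overlapped between the days, with a difference of 0.04 over both lines. The list as a whole had 0 members.

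ATG8B belongs to the ubiquitin-like ATG8 proteins, which are coupled to lipid in the membrane of autophagosomes. It was at 4.56 and 4.71 in rRBr and 5.25 and 5.18 in Col-0 at 4 das, 5.52 and 4.84 in rRBr and 5.48 in Col-0 at 6 das, and 5.56, 5.56 and 5.49 in rRBr and 5.56, 6.27 and 6.02 in Col-0 at 10 das (log2 values). ATG8B was lower in rRBr than in Col-0 on average at each day, against the direction of most risers. All 9 genes of the ATG8 family that were looked at, after the values were seen, had a probe set, and ATG8B was the only riser, with 7 of the 9 above 0 and a median difference of 0.15. The next in size, ATG8E, differed by 1.27 in rRBr and by -0.14 in Col-0 and so failed the rule.

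Among the risers without a role, AT3G49160 had the largest difference, 1.26 in rRBr and 1.90 in Col-0. Its log2 values were 4.40 and 4.93 in rRBr and 3.90 and 3.98 in Col-0 at 4 das, 5.64 and 6.18 in rRBr and 5.15 in Col-0 at 6 das, and 5.86, 6.16 and 5.76 in rRBr and 5.72, 6.23 and 5.57 in Col-0 at 10 das. All 3 values of 6 das lay above those of 4 das. AT5G22580 (mean difference 1.52), AT5G08050 (1.35), AT1G19960 (1.19) and AT3G60540 (1.08) followed. AT2G41380 differed by 0.97, AT1G51830 by 0.85 and AT1G71200 by 0.74. AT1G51830 depended on the arrays that stand apart, with log2 values of 6.54 and 4.54 on the rRBr arrays of 6 das and a mean difference of 0.50 without the 3 arrays.

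The largest riser of all, 257481_at, has no gene given. It was at 5.15 and 5.58 in rRBr and 4.81 and 4.49 in Col-0 at 4 das, and already at 7.44 and 8.64 in rRBr and 8.06 in Col-0 at 6 das, with 7.57, 9.18 and 8.08 in rRBr and 7.46, 8.90 and 8.22 in Col-0 at 10 das (log2 values). The difference of 9.37-fold was nearly complete at 6 das, with 91.9% reached in rRBr and 96.2% in Col-0. In contrast, 257382_at, with a mean difference of 2.08, had reached 21.8% in rRBr and 4.96% in Col-0.

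**Figure D2:**
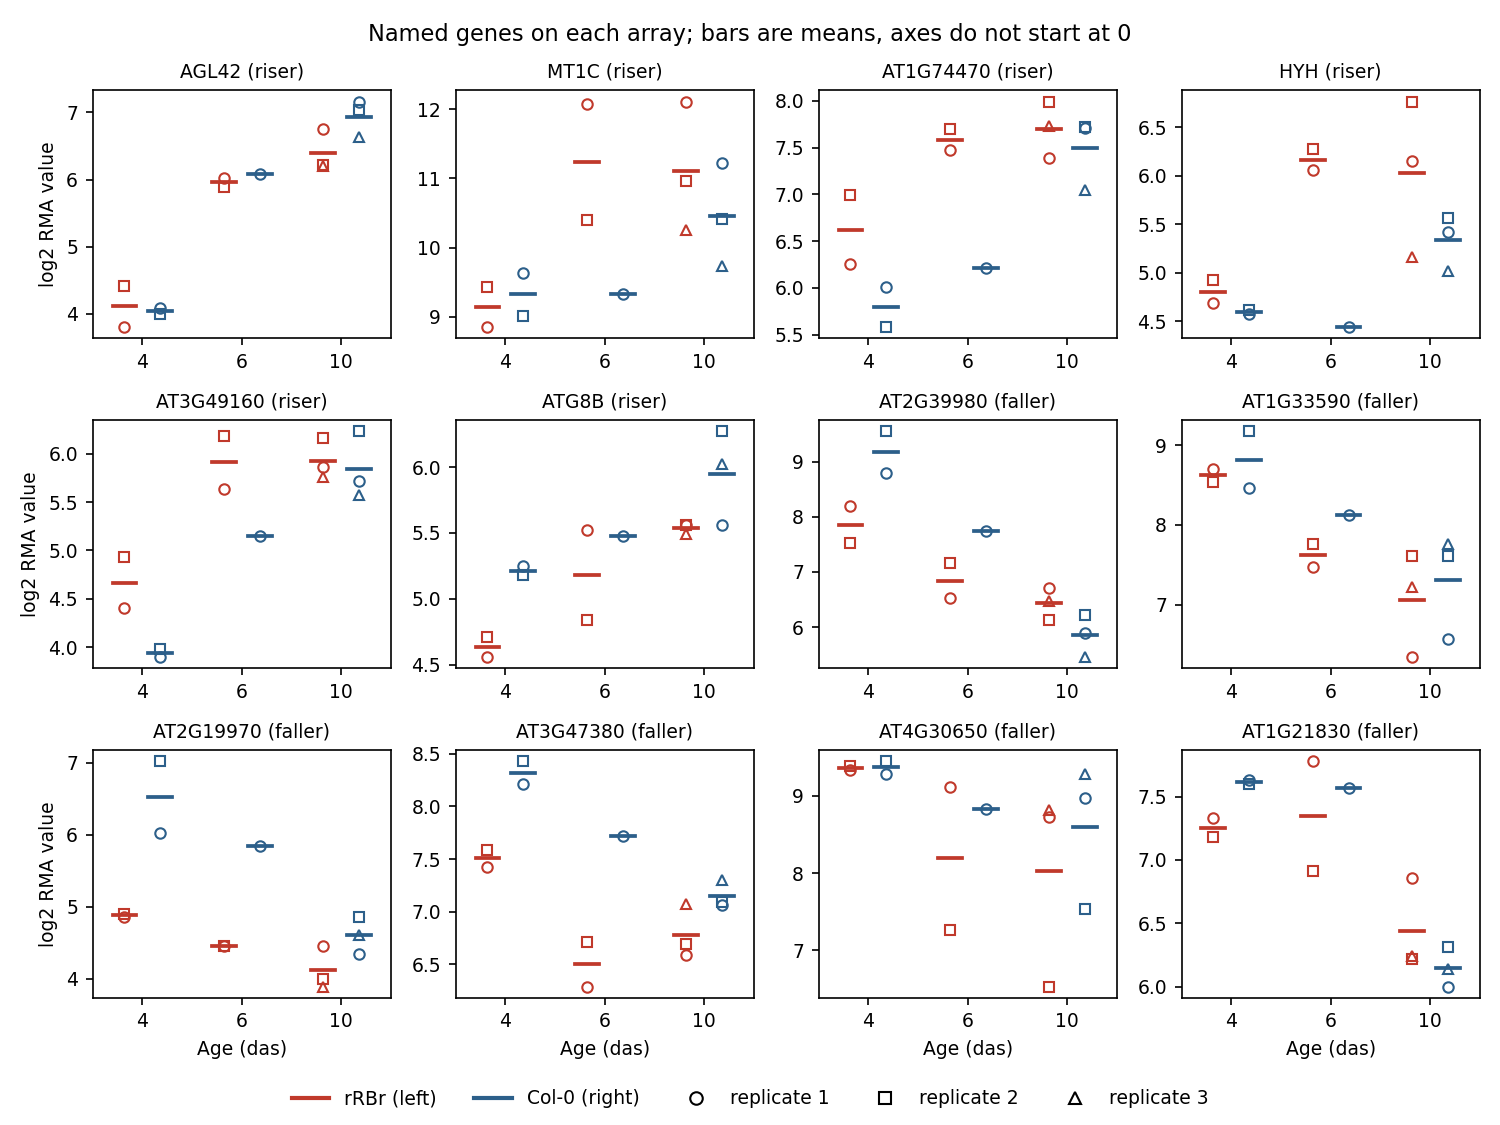
Each panel gives the log2 RMA values (vertical axis) of 1 named gene at 4, 6 and 10 das (horizontal axis), with rRBr left of Col-0, a symbol for each replicate number and bars at the means. AGL42 steps up in both lines by 6 das, whereas HYH and AT1G74470 are near their 10 das level in rRBr only. On the Col-0 array of 6 das HYH is below all 4 das values, and AT1G74470 is above the 4 das values of Col-0 but below those of rRBr.

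AT2G39980 had the largest difference of the fallers and the most unequal one between the lines. The log2 values were 8.20 and 7.52 in rRBr and 8.80 and 9.55 in Col-0 at 4 das, 6.53 and 7.16 in rRBr and 7.74 in Col-0 at 6 das, and 6.71, 6.12 and 6.47 in rRBr and 5.89, 6.22 and 5.46 in Col-0 at 10 das. The rRBr means were thus the lower ones at 4 and 6 das and the higher ones at 10 das. AT2G39980 differed between 10 and 4 das by -1.43 in rRBr and by -3.32 in Col-0.

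AT2G19970 also differed less in rRBr, where it was already low at 4 das. Its log2 values were 4.86 and 4.90 in rRBr and 6.02 and 7.02 in Col-0 at 4 das, 4.46 and 4.45 in rRBr and 5.84 in Col-0 at 6 das, and 4.46, 3.99 and 3.89 in rRBr and 4.34, 4.85 and 4.61 in Col-0 at 10 das. The lines did not overlap at 4 or 6 das and overlapped at 10 das. The difference between 10 and 4 das was -0.77 in rRBr and -1.92 in Col-0.

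AT3G47380 was at 7.43 and 7.59 in rRBr and 8.21 and 8.43 in Col-0 at 4 das, 6.29 and 6.71 in rRBr and 7.72 in Col-0 at 6 das, and 6.59, 6.69 and 7.07 in rRBr and 7.06, 7.09 and 7.30 in Col-0 at 10 das (log2 values). In rRBr the lowest value was that of a 6 das array, and in Col-0 the 6 das value was about midway. AT1G33590 had 8.70 and 8.54 in rRBr and 8.46 and 9.17 in Col-0 at 4 das, 7.48 and 7.76 in rRBr and 8.12 in Col-0 at 6 das, and 6.35, 7.61 and 7.22 in rRBr and 6.57, 7.61 and 7.76 in Col-0 at 10 das. Its differences were alike, -1.56 in rRBr and -1.50 in Col-0, and replicate 1 was the lowest of 10 das in both lines.

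AT4G30650 varied more between replicates of 10 das than between the mean levels of the days. It was at 9.34 and 9.39 in rRBr and 9.29 and 9.45 in Col-0 at 4 das, 9.12 and 7.26 in rRBr and 8.83 in Col-0 at 6 das, and 8.73, 6.53 and 8.82 in rRBr and 8.97, 7.53 and 9.28 in Col-0 at 10 das (log2 values). Replicate 2 was the lowest at 6 das in rRBr and at 10 das in both lines, and the highest 10 das value lay only 0.01 below the lowest of 4 das.

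In AT1G21830 the 2 rRBr arrays of 6 das lay on opposite sides of the 4 das values. Its log2 values were 7.33 and 7.18 in rRBr and 7.63 and 7.60 in Col-0 at 4 das, 7.78 and 6.91 in rRBr and 7.57 in Col-0 at 6 das, and 6.86, 6.22 and 6.24 in rRBr and 6.00, 6.31 and 6.14 in Col-0 at 10 das. Replicate 1 of rRBr at 6 das, which stands apart, was above all 4 das values, and replicate 2 was below all of them. In Col-0 3.07% of the difference had been reached.

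The remaining named fallers had mean differences from -1.37 in AT1G66800 to -0.80 in AT5G47950. Among them, AT1G21670 differed by -1.22, AT3G20160 by -1.07, AT3G49190 by -1.05 and AT5G62330 by -1.01, with AT1G55240 just after it. AT3G06460, AT5G23840 and AT5G17960 each differed by -0.90. The probe sets 258217_at and 258218_at, for which no gene is given, came next to AT2G39980 among all fallers. The log2 values of 258217_at were 10.37 and 10.68 in rRBr and 10.90 and 10.25 in Col-0 at 4 das, 7.71 and 8.31 in rRBr and 9.58 in Col-0 at 6 das, and 8.05, 8.07 and 9.16 in rRBr and 8.66, 8.29 and 9.70 in Col-0 at 10 das. Those of 258218_at followed the same order of lines at 6 das, with 9.63 and 9.88 in rRBr and 11.16 in Col-0.

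The limit of 0.7 divides probe sets that differ little. Just inside it for the risers were AT1G71200, with 0.70 in rRBr and 0.78 in Col-0, and ATG8B, with 0.90 and 0.74 in the same order. Just outside were AT4G13010, with 0.72 in rRBr and 0.67 in Col-0, and AT4G39590, with 0.65 in rRBr and 0.78 in Col-0. For the fallers, AT5G17960 (-0.71 in rRBr, -1.09 in Col-0) and AT5G47950 (-0.72 in rRBr, -0.88 in Col-0) were just inside. AT3G59850 (-0.90 in rRBr, -0.69 in Col-0) and CCS, the copper chaperone of superoxide dismutase (-0.73 in rRBr, -0.68 in Col-0), were just outside.

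The arrays of 6 das were not used to choose the members and show the step between the outer days. Of the 31 risers, replicates 1 and 2 of rRBr lay above all 4 das values for 26 and 27, and the Col-0 array for 20. Of the 25 fallers, the rRBr arrays lay below all 4 das values for 19 and 23, and the Col-0 array for 14. All 3 arrays had passed the 4 das values for 18 risers and 11 fallers, and no array had for 3 risers and 1 faller. The 4 das values in these counts are those that the rule used. The share of all probe sets that passed the 4 das values was not counted, so that the counts only describe the members.

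The rRBr mean of 6 das had covered a median of 90.9% of the difference between 10 and 4 das in risers and 64.1% in fallers, against 48.4% and 49.7% on the Col-0 array. Replicate 2 of rRBr alone, which does not stand apart, had covered a median of 80.4% in risers and 56.6% in fallers. The means of 4 and 10 das were left unchanged for this. By the rRBr mean the share was at least 50% in 26 risers and 19 fallers, and in Col-0 in 15 risers and 11 fallers. It was larger in rRBr than in Col-0 for 23 of 31 risers and 17 of 25 fallers. These shares have the rule's own difference as their denominator, and each Col-0 share rests on 1 array, so that no test of the 2 lines was made on them. A faller that ran the other way was 266656_at, with 6 das means farther from 10 das than those of 4 das in both lines.

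**Figure D3:**
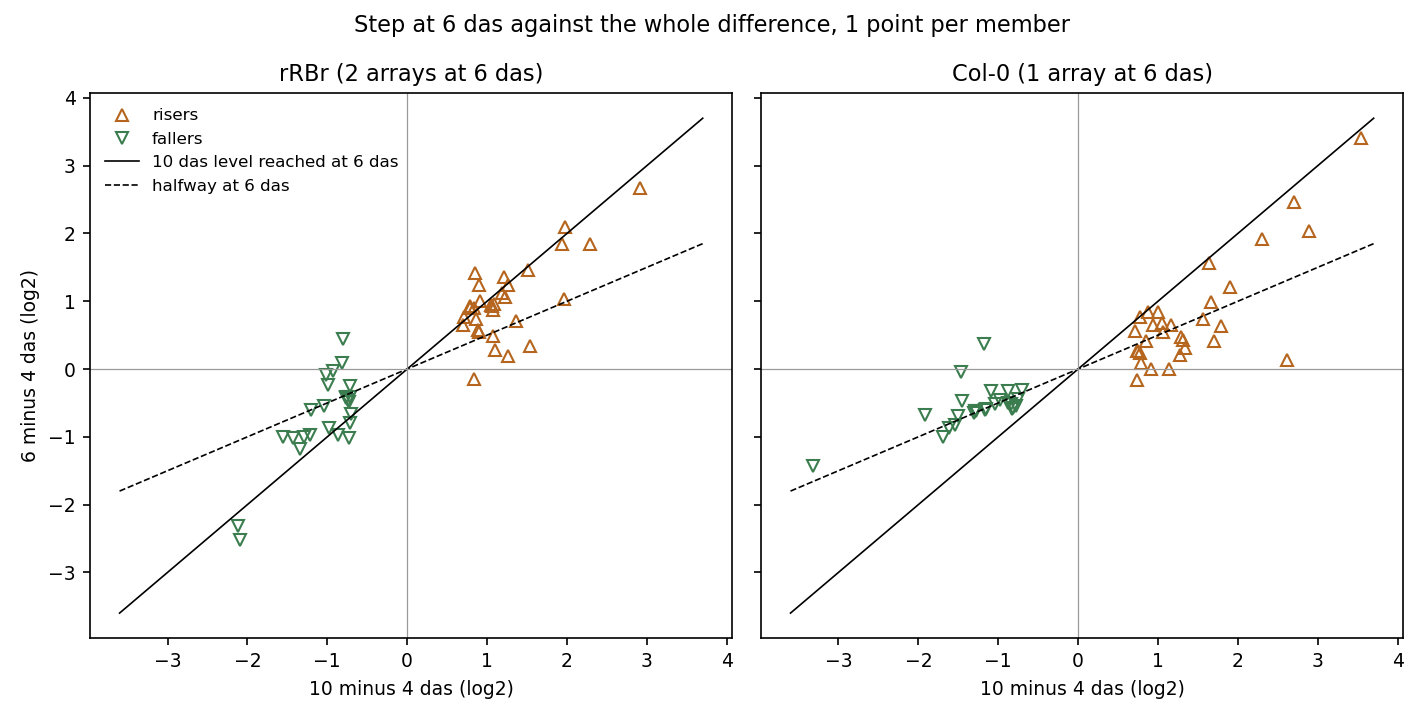
For each member, the difference between 6 and 4 das (vertical axis, log2) is plotted against that between 10 and 4 das (horizontal axis, log2), for rRBr on the left and Col-0 on the right. Points on the solid line had reached their 10 das level at 6 das, and points on the dashed line were halfway, where the median Col-0 share was 48.4% in risers and 49.7% in fallers.

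The difference between the lines was not used directly by the rule, although a large one can make the days overlap and so keep a probe set from being a member. The main limma fit had the 6 groups of line and day and no replicate block. Averaged over the 3 days in this fit, 0 of the 56 members passed an adjusted p under 0.01 with a fold change of at least 1.4, against 0.259% of all probe sets. At an unadjusted p under 0.05 there were 10 risers and 9 fallers, 32.3% and 36% of them, against 8.73% of all probe sets. This average and its spread rest on 13 arrays, 10 of which were used to choose the members. These shares, and the adjusted p-values of single members given below, are therefore a description. Of these 10 risers 9 were higher in rRBr, and all 9 fallers were lower in rRBr.

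Among all members, 25 of 31 risers were higher in rRBr, with a median difference of 0.26, and 21 of 25 fallers were lower in rRBr, with a median of -0.28. Over all probe sets, 46.5% were higher and 53.3% lower in rRBr, with a median of -0.01. Members in their majority thus differed between the lines in the direction in which they differed between the days. Without the 3 arrays that stand apart, 26 risers were higher and 22 fallers lower in rRBr. Members are not independent of each other, and these counts carry no test.

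The smallest adjusted p was that of AT3G47380, whose log2 difference between the lines was -0.80 with a standard error of 0.11 (limma, adjusted p = 0.01381). A replicate block in the fit gave -0.83 and an adjusted p of 0.00315 from limma, which passed the limit. AT2G19970 followed with -1.17 (standard error 0.18, adjusted p = 0.02124 from limma) and 254453_at with -0.88 (standard error 0.16, adjusted p = 0.04888 from limma). In AT3G47380 and AT2G19970 all rRBr values were below all Col-0 values at 4 and at 6 das, and in 254453_at on each of the 3 days.

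The risers nearest to a call were AT1G74470, higher in rRBr by 0.80 (standard error 0.19, adjusted p = 0.112 from limma), and 251109_at, higher by 0.45 (standard error 0.11, adjusted p = 0.1246 from limma). HYH was higher by 0.88 (standard error 0.24, adjusted p = 0.2095 from limma). ATG8B was the riser with the lowest value in rRBr against Col-0, -0.43 (standard error 0.14, adjusted p = 0.3318 from limma). Without the 3 arrays that stand apart its difference was -0.61 and its adjusted p from limma 0.008792. AGL42 differed by -0.20 (standard error 0.15, adjusted p = 0.8152 from limma).

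At 6 das alone, 0 of the 56 members were called in the same fit, where 0.0044% of all probe sets, a single one, were called. The rule did not use the arrays of this day. The spread in the fit came mostly from arrays of the other days, which the rule did use. The calls and the shares at an unadjusted p are therefore not independent of the rule and are a description. There were 6 risers and 5 fallers at an unadjusted p under 0.05, 19.4% and 20% of them, against 4.35% of all probe sets. Of the risers, 23 of 31 were higher in rRBr with a median of 0.48, and of the fallers 20 of 25 were lower with a median of -0.50, against 44.1% higher and 54.7% lower over all probe sets. Replicate 2 of rRBr alone, which does not stand apart, was above the Col-0 array for 25 risers and below it for 21 fallers. All of these counts share the single Col-0 array of 6 das. By the mean of both rRBr arrays the largest differences were in MT1C (1.91), HYH (1.73) and AT1G74470 (1.38) among the risers and in 258217_at (-1.57), 258218_at (-1.41) and AT2G19970 (-1.39) among the fallers. On replicate 2 of rRBr alone, HYH (1.83) and AT1G74470 (1.49) exceeded MT1C (1.07), and AT4G30650 (-1.57) had the largest difference of the fallers.

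**Figure D4:**
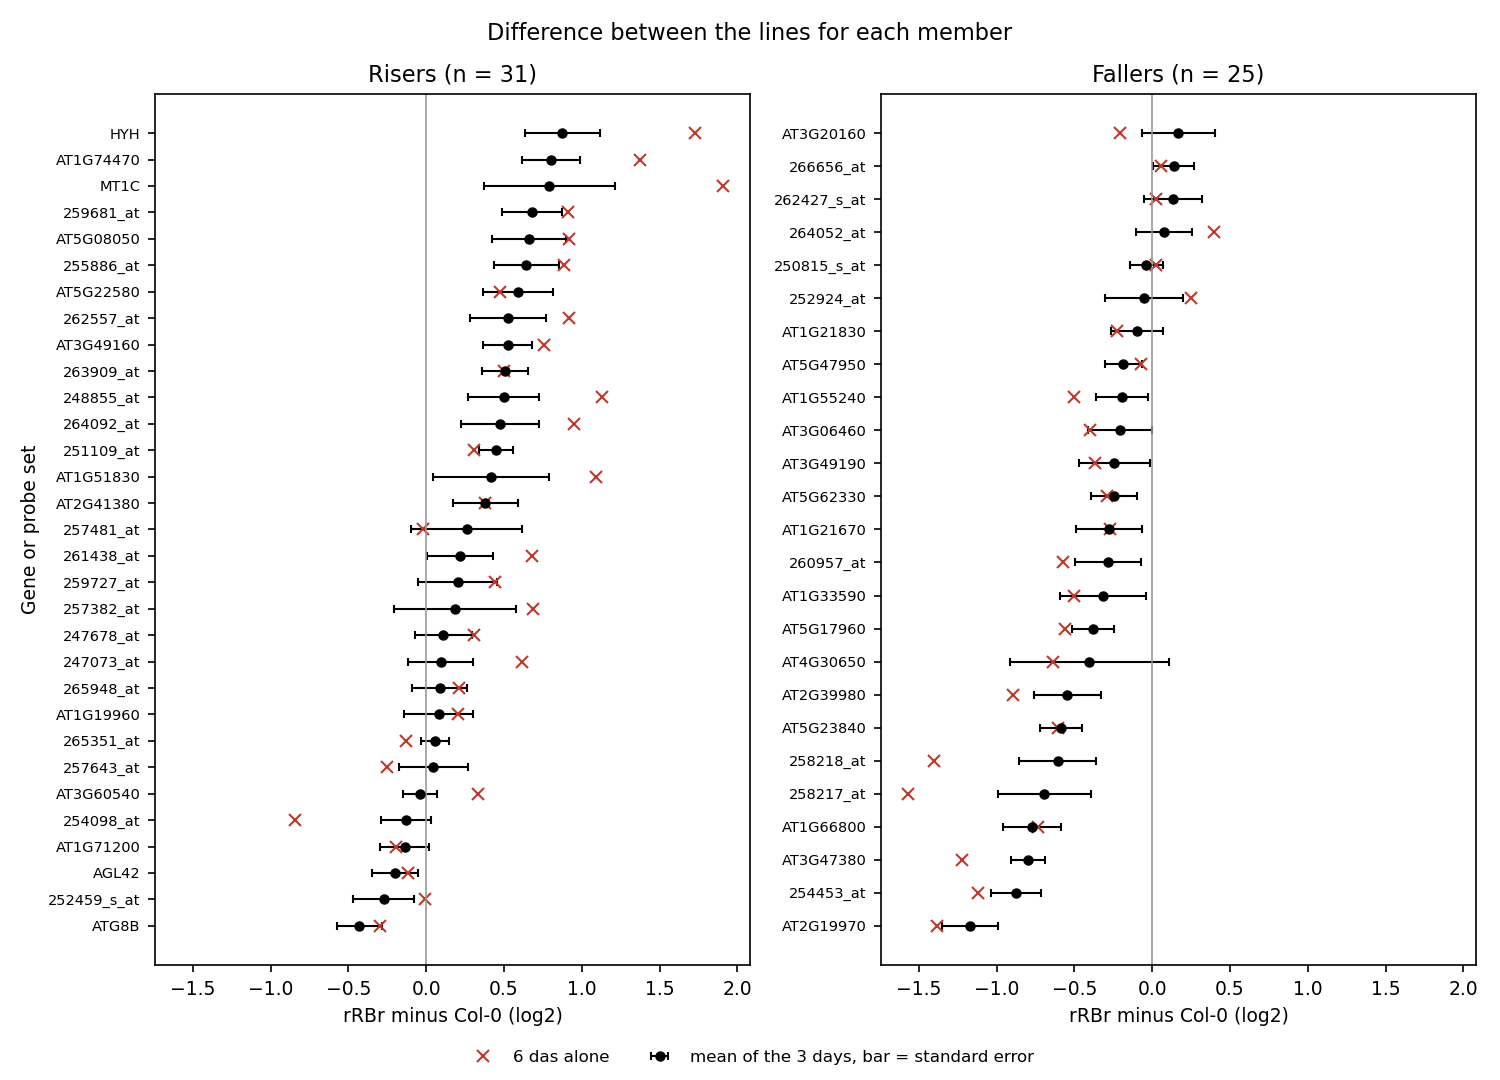
For each riser (left) and faller (right), the black point gives rRBr minus Col-0 on the log2 scale as the mean of the 3 days with its standard error from limma, and the red cross gives the difference at 6 das alone. Most risers lie right of 0 (25 of 31) and most fallers left of it (21 of 25), and no member was called in this fit, which has no replicate block. With a replicate block AT3G47380 was called.

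For part of the members the same replicate number was the farthest from 4 das, or the nearest to it, in both lines at 10 das. Replicate 1 was the farthest from 4 das in both lines for 8 risers and 10 fallers, replicate 2 for 9 risers and 2 fallers, and replicate 3 for 1 riser and 0 fallers. Replicate 3 was the nearest to 4 das in both lines for 12 risers and 8 fallers. These counts come from values that the rule used. The share over all probe sets was not counted, so that the counts only describe the members. A rule on the differences between 10 and 4 das within replicate numbers 1 and 2, with no demand on overlap, took in 89 risers and 47 fallers, among them 28 of the 31 and 23 of the 25.

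Leaving out any single array of 4 or 10 das kept 20 risers and 10 fallers in every case, AGL42, MT1C, AT3G49160, AT1G74470, AT2G39980 and AT1G33590 among them. A left-out array cannot bring overlap into a member, so that only the limit of 0.7 could be missed. Members kept in this way are therefore no independent support for the rule. Without replicate 1 of both lines at 10 das the rule found 38 risers and 86 fallers, which held 23 of the 31 risers and 15 of the 25 fallers. AT3G47380 and HYH were among those lost. Without the 3 arrays that stand apart, the mean difference was under 0.7 for 5 risers and 3 fallers.

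The members with a named gene lay on all 5 chromosomes, with 5 risers and 5 fallers on chromosome 1 and 1 riser and 1 faller on chromosome 4. Of all probe sets of 1 gene with a chromosome given, 25.7% were on chromosome 1 and 14.6% on chromosome 4. Few members were close to each other. AT3G49160, a riser, and AT3G49190, a faller, were separated by 4 annotated genes, AT1G21670 and AT1G21830, both fallers, by 17, and AGL42 and the faller AT5G62330 by 18. Of 50 measured genes within 2 places of a member on the chromosome, 1 had a mean difference of at least 0.5 in either direction, AT3G06470 beside the faller AT3G06460, with -0.61. The median of the 50 was 0.00. The share of all probe sets with a difference of at least 0.5 was not counted, so that these values only describe the neighbours.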

How the data were processed

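RNA of dissected root tips was hybridized to 13 ATH1 arrays. The authors made the deposited log2 values by RMA (background correction, quantile normalization and summary per probe set) with affy, whose version is not given in the sources used here. They were used as deposited, and 64 control probe sets were left out. Genes were named from the platform annotation and RefSeq, with 1 gene for 13513 probe sets, several for 503 and none given for 8730. The members and gene lists were chosen with earlier results of these data known. Named were the 12 largest risers and fallers of 1 gene, members on a list or with a called line difference, the 3 of each direction that differed most between lines and the 2 nearest on each side of the limit; the other named genes were chosen after their values were seen, as were the leading probe sets without a gene. Lines were compared with limma 3.58.1 in R 4.3.3 (lmFit, eBayes, Benjamini-Hochberg over 22746 probe sets), with calls at adjusted p under 0.01 and 1.4-fold or more, and the fit was tested on simulated data. The number of arrays limits the precision, and the spread of the single Col-0 array of 6 das is taken from the other groups. Per the study's methods the arrays are biological replicates, and germination was repeated 3 times. After removal of group means, arrays of the lines with the same number correlated at 0.79, 0.60 and 0.63 at 10 das, against -0.72 to 0.56 with another number, and at 0.18 at 4 das, where 2 arrays per line give a single value. As each was over 0.1, the numbers were taken to pair the samples. At 10 das replicate 2 of rRBr also correlated at 0.56 with replicate 3 of Col-0. Replicate 3 of rRBr correlated at 0.41 with replicate 2 of Col-0. The limit of 0.1 thus could not decide how numbers 2 and 3 pair. The main fit still held no replicate block, and the fit with one is given as an alternative.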

Additional observations from a re-analysis of the deposited data

How the results depend on the processing

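The number of risers and fallers depended on the limit, with 55 and 55 at a limit of 0.5 and 14 and 6 at 1.0. When overlap was allowed there were 64 and 43. A rule on the differences within replicate numbers 1 and 2, without replicate 3 and with no demand on overlap, gave 89 and 47. Leaving out 1 array of 4 or 10 das gave 28 to 60 risers and 21 to 45 fallers, with the highest counts without rRBr 4 das replicate 2 and 47 risers without Col-0 4 das replicate 1. Without the pair of replicate 1 arrays of 10 das there were 38 risers and 86 fallers, and without the pair of replicate 2 arrays, a setting chosen after seeing the data, 35 and 29. Quantile normalization again, centring and a mean value of at least 5 kept both counts within 1.5 times. The cause of these changes was not tested beyond the settings themselves.

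For the line difference averaged over the days, 0 members were called. With the replicate block there was 1 (AT3G47380), without the 3 arrays that stand apart 1 (ATG8B, lower in rRBr), with an adjusted p under 0.05 and no limit on the fold 3, with array weights 3, and without single arrays 0 to 1, the 1 being AT2G19970 without Col-0 4 das replicate 1. Pooling all days into 2 groups, or adding the day as a factor, gave 0. At 6 das 0 members were called under each alternative that gave a value, and without the Col-0 array of that day there is none. The pairing changed no other call. The 10 minus 4 das differences of the 29 named members moved by less than the spread between replicates in all 406 combinations of gene and setting. A left-out array also counts in that spread. Under left-out arrays and for the differences within replicate numbers 1 and 2, both the small move and the direction were therefore fixed in advance. They are no test of stability. Motifs and proteins of the members are not analysed here.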
